A study of Mus musculus with 12 samples.

Results

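The disease-associated microglia program and its receptor TREM2 were followed in injured spinal cord of male ApoE4 mice through 10 genes, TREM2, TYROBP, CLEC7A, ITGAX, CD9, CD63, CD68, GPNMB, CST7 and SPP1. They were picked by name, with earlier results of these data known. All 10 were listed among the 13647 genes above the lesion and 8 of the 10 among the 12338 genes below it. Nearly all of them had a lower level in the group labelled synj1+/- than in that labelled synj1+/+. Above the lesion 9 of 10 were lower, where 51.0% of all genes were, with TREM2 at 208.0 against 313.8 FPKM (fragments per kilobase of transcript, scaled to the fragments mapped) and its adaptor TYROBP at 55.93 against 87.82 FPKM. Below the lesion 8 of 8 were lower, where 47.2% of all genes were, by 30.1% for ITGAX to 44.7% for TYROBP. Markers of myeloid cells in general were lower by a similar amount at both sites, and those values are given beside the members' values.

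All groups were male mice that expressed human ApoE4 and received a contusion of the spinal cord at thoracic level 9 when they were 4 months old. RNA was taken 14 days later from short segments of cord just above (rostral) or just below (caudal) the lesion. The group labelled synj1+/+ carried both normal alleles of synj1, the gene of the lipid phosphatase synaptojanin 1, and the group labelled synj1+/- carried 1 inactive allele. Each of the 4 groups of genotype and site had 3 libraries, 12 in all, and a mouse may have given a segment at each site; ApoE3 and sham mice were not analysed here. The allele was inherited, so it was not limited to microglia, and the tissue was a mixture of all cells of the segment.

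The deposited table holds 1 value per gene and group, combined by the authors from the 3 libraries, and it gives no way to compute the spread between libraries. The authors' own tests in the table were not used, and every comparison below is a description of 4 group values. The table does not show how deeply each library was sequenced. Reads had been reduced at random to the size of the smallest library, separately for each site, so levels set across sites may also carry a difference in normalization. The lowest deposited value is exactly 1, so the values were read as FPKM plus 1, and ratios below are log2 ratios of FPKM plus 1, labelled synj1+/- over labelled synj1+/+. A log2 ratio of -0.5 or lower, a level 1.41-fold lower, is termed past the fold. Percentages and folds come from the same values, and where a pair of FPKM values is given, that of the group labelled synj1+/+ comes first. Because whole tissue was measured, fewer cells of a type and less RNA per cell cannot be told apart.

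The targeted gene went against the labels. SYNJ1 was at 1903.9 FPKM (labelled synj1+/+) and 2403.0 FPKM (labelled synj1+/-) above the lesion, and at 1845.7 and 2591.7 FPKM below it. Each direction drawn here is therefore that of the labels, which the level of SYNJ1 did not match, and with the labels exchanged each ratio would have the opposite sign. The tissue itself carried its defining markers, with GFAP of astrocytes at 12973.7 FPKM above the lesion and MOBP of oligodendrocytes at 10365.3 FPKM below it, both in the group labelled synj1+/+. Homeostatic microglia markers were listed for 12 of 13 genes above and 8 of 13 below, and none of 6 T cell markers was listed at either site.

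TREM2 is a lipid-sensing receptor on the surface of microglia and other macrophages. It has no signalling tail of its own and works through the adaptor TYROBP (DAP12), whose phosphorylated motif recruits the kinase SYK. In mouse models of neurodegeneration and demyelination, microglia pass from a homeostatic state, marked by genes such as P2RY12 and TMEM119, to a disease-associated state, whose full program depends on TREM2 and includes lectins, integrins, tetraspanins, lysosomal proteins and secreted factors. Several of these genes are also used outside microglia: CD9 and CD63 by many cell types, SPP1 by infiltrating macrophages and some motor neurons, and GPNMB and CD68 by macrophages of blood origin.

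The receptor and its adaptor were examined first, with gene positions from RefSeq. TREM2, on chromosome 17 at 48346401 to 48352276 of GRCm38.p6, was at 313.8 FPKM (labelled synj1+/+) and 208.0 FPKM (labelled synj1+/-) above the lesion. That is 33.6% lower, a log2 ratio of -0.59 and place 257 from the lowest of all 13647 genes. TREM2 has no value below the lesion in the rows used here, so the receptor could be compared at 1 site only. TYROBP, on chromosome 7 at 30413782 to 30417582, was at 87.82 and 55.93 FPKM above the lesion, a log2 ratio of -0.64 and place 202. Below the lesion TYROBP was at 131.8 and 72.48 FPKM, a log2 ratio of -0.85 and place 243 of 12338 genes. It was the member with the lowest ratio at both sites, and its level below the lesion under the label synj1+/- was less than that above the lesion under the label synj1+/+. The level of TREM2 per length was 3.57 times that of TYROBP in the group labelled synj1+/+ and 3.72 times in the group labelled synj1+/-, so receptor and adaptor were lower by nearly the same share above the lesion.

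The lectin and the integrin subunit were not past the fold above the lesion. CLEC7A (Dectin-1), a receptor for beta-glucans, was at 68.36 FPKM (labelled synj1+/+) and 58.16 FPKM (labelled synj1+/-) above the lesion, a log2 ratio of -0.23. Like TREM2, it has no value below. ITGAX (CD11c), an integrin alpha subunit that dendritic cells also carry, was at 11.45 and 12.32 FPKM above the lesion, a log2 ratio of 0.10. It was the only member with a higher value in the group labelled synj1+/-, and the least abundant of the 10. Below the lesion ITGAX was at 17.66 and 12.03 FPKM, a log2 ratio of -0.52, so its direction differed between the sites. The gene lies on chromosome 7 at 128129526 to 128150657. CLEC7A, on chromosome 6 at 129461591 to 129472785, overlaps the RefSeq gene Gm45969, and the library kit does not mark strand, so reads from the overlap cannot be told apart.

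The tetraspanins, membrane organizers of the cell surface (CD9) and of late endosomes and exosomes (CD63), differed mainly below the lesion. CD9 was at 40.50 and 37.66 FPKM above the lesion in the groups labelled synj1+/+ and synj1+/-, a log2 ratio of -0.10, and at 57.40 and 35.68 FPKM below it, a log2 ratio of -0.67. CD63 was at 388.4 and 313.5 FPKM above the lesion, a log2 ratio of -0.31, and at 493.5 and 337.1 FPKM below it, a log2 ratio of -0.55. CD9 was thus 6.8% lower above the lesion and 37.2% lower below it, while CD63, on chromosome 10 at 128896231 to 128912822, was lower at both sites. CD9, on chromosome 6 at 125460266 to 125494760, overlaps Gm26728 and Gm28809, with the same limit as for CLEC7A.

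The lysosomal members were lower at both sites. CD68, a heavily glycosylated protein of the macrophage lysosome, was at 137.5 FPKM (labelled synj1+/+) and 96.84 FPKM (labelled synj1+/-) above the lesion, a log2 ratio of -0.50 that only just passed the fold. Below the lesion CD68 was at 199.5 and 115.0 FPKM, a log2 ratio of -0.79 and 42.1% lower. CST7 encodes cystatin F, an inhibitor of lysosomal cathepsins. It was at 30.81 and 21.25 FPKM above the lesion, a log2 ratio of -0.516, and at 43.80 and 28.66 FPKM below it, a log2 ratio of -0.595. GPNMB, a transmembrane glycoprotein of lysosomes and melanosomes, was at 63.68 and 48.13 FPKM above the lesion, a log2 ratio of -0.40, and at 108.9 and 69.82 FPKM below it, a log2 ratio of -0.63. CST7 had the ratio that differed least between the sites of the 8 members listed at both. The 3 genes lie apart, CD68 on chromosome 11 at 69664213 to 69666170, CST7 on chromosome 2 at 150570415 to 150578944 and GPNMB on chromosome 6 at 49036518 to 49058182.

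SPP1 (osteopontin), a secreted ligand of integrins and CD44 encoded on chromosome 5 at 104435111 to 104441053, was the most abundant member in all 4 groups. It was at 1038.3 FPKM (labelled synj1+/+) and 870.1 FPKM (labelled synj1+/-) above the lesion, 16.2% lower. Below the lesion SPP1 was at 1865.7 and 1108.5 FPKM, a log2 ratio of -0.75 and 40.6% lower. SPP1 thus stood at 1108.5 FPKM below the lesion under the label synj1+/-, close to its 1038.3 FPKM above the lesion under the label synj1+/+.

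The order of the levels, per length, was SPP1, CD63, TREM2, CD68, TYROBP, CLEC7A, GPNMB, CD9, CST7 and ITGAX above the lesion under the label synj1+/+. The order was the same under the label synj1+/- but for TYROBP and CLEC7A, which changed places. Below the lesion the 8 listed members kept this order in both groups. With no spread between libraries, whether neighbours such as CLEC7A and GPNMB, at 68.36 and 63.68 FPKM, differ beyond error cannot be said.

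**Figure D1:**
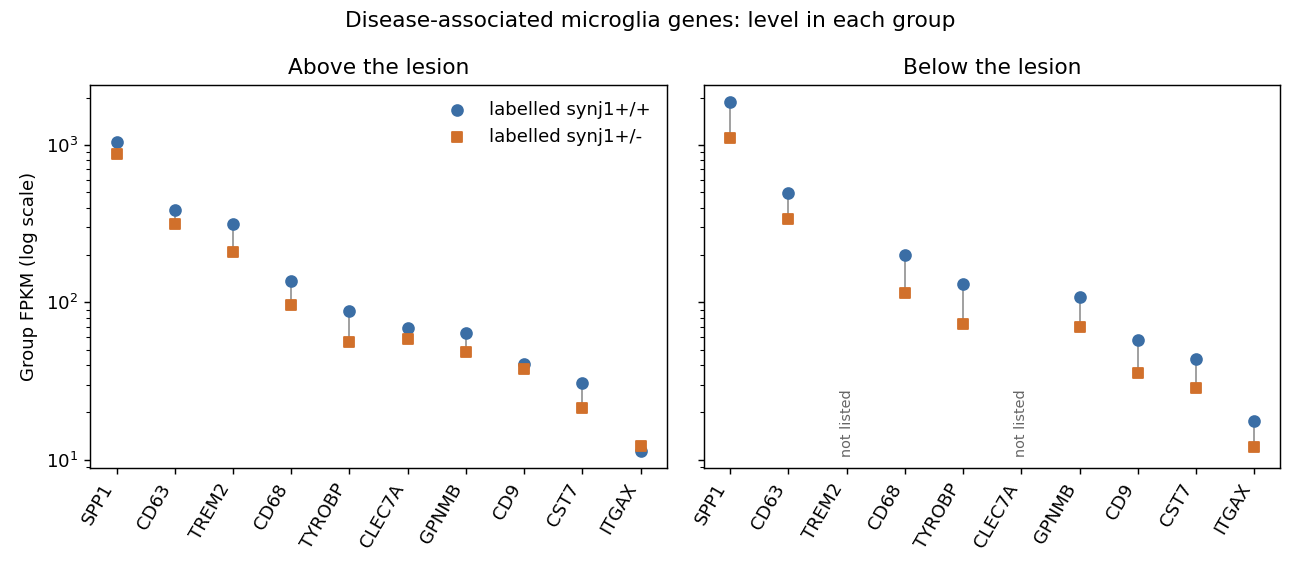
Group FPKM of the 10 members (vertical axis, log scale) above and below the lesion, with circles for the group labelled synj1+/+ and squares for the group labelled synj1+/-, 1 value each combined by the authors from 3 libraries. The squares sit under the circles for every member but ITGAX above the lesion (11.45 and 12.32 FPKM); TREM2 and CLEC7A have no value below.

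Counted over the members, 4 of 10 were past the lower fold above the lesion (TYROBP, TREM2, CST7 and CD68), where 2.87% of all 13647 genes were. With 5 in place of 1 added to the FPKM, 2 were, with no share of all genes taken at that setting. None was higher by a log2 ratio of 0.5 or more, where 1.30% of all genes were. The median log2 ratio of the 10 members was -0.352, against -0.004 for all genes above the lesion, of which 51.0% were lower. Below the lesion 8 of 8 members were past the lower fold, where 5.74% of all 12338 genes were, 7 of 8 with 5 added to the FPKM, and 0 of 8 past the higher fold, where 2.04% were. Their median was -0.652, with a range of -0.853 to -0.517, against 0.014 for all genes below the lesion, of which 47.2% were lower. Over the same 8 members, 3 were past the lower fold above the lesion.

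**Figure D2:**
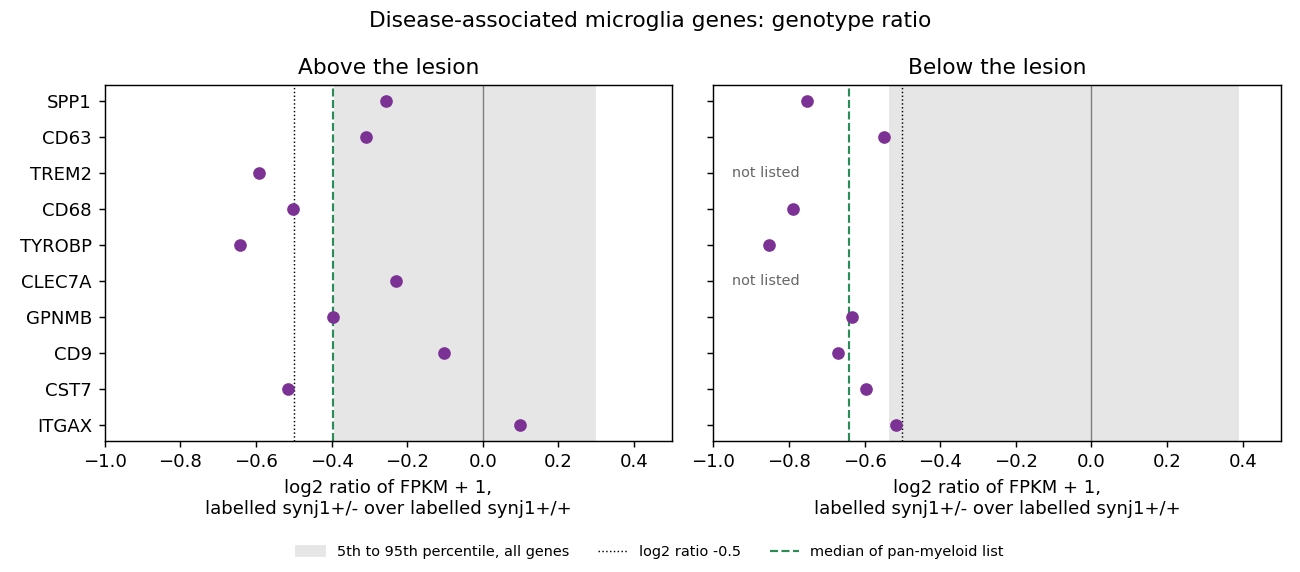
Log2 ratio of FPKM plus 1, labelled synj1+/- over labelled synj1+/+ (horizontal axis), of each member above and below the lesion; the grey band spans the 5th to 95th percentile of all genes, the dotted line marks -0.5 and the dashed line the median of the pan-myeloid list. All 8 points below the lesion lie at -0.517 or lower, around the pan-myeloid median of -0.642, and above the lesion they run from -0.642 to 0.098 around -0.395.

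A list of myeloid markers, termed pan-myeloid here, was lower beside the members; it includes the 3 chains of complement C1q, which are made mainly by microglia and tissue macrophages. Of 12 pan-myeloid markers listed above the lesion, 11 were lower and 5 past the fold, with a median log2 ratio of -0.395 and a summed level of 2059.3 FPKM under the label synj1+/+ and 1427.5 under the label synj1+/-. Below the lesion 11 of 11 listed were lower and 8 past the fold, with a median of -0.642 and summed levels of 2931.6 and 1877.5 FPKM. The lowest was C1QC, one of these chains, at 643.3 and 410.4 FPKM above the lesion, and AIF1 (IBA1), an actin-binding protein of microglia and macrophages, at 26.04 and 13.24 FPKM below it. AIF1 was also the highest of the list above the lesion, at 17.20 and 17.73 FPKM, and CYBB, a subunit of the phagocyte NADPH oxidase, was the highest below it, at 16.01 and 12.08 FPKM.

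Taken relative to the pan-myeloid median of their own site, the members were centered near 0. Their median was 0.042 above the lesion, with 5 of 10 members under the pan-myeloid median, and -0.010 below, with 4 of 8 under it. On this scale 0 of 10 members were past the lower fold above and 0 of 8 below. No share of all genes was taken on it, and few genes lie so low. An unshifted log2 ratio of -1 or lower was held by 0.564% of all genes above and 1.30% below. The members ran from -0.247 to 0.492 around the pan-myeloid median above the lesion and from -0.211 to 0.125 below it. Relative to the median of the homeostatic microglia markers, a comparison chosen after seeing the data, 6 of 10 members were under it above the lesion, with a median of -0.074, and 8 of 8 below it, with a median of -0.290 and a range of -0.492 to -0.156. The homeostatic median was taken over 12 markers above and 8 below, so these readings do not rest on the same markers at both sites. The members thus lay near the pan-myeloid list at both sites and lower than the homeostatic list below the lesion. The part of the myeloid markers' difference in that of the members was not tested.

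Homeostatic microglia markers were lower as well, by less at the median of those listed at each site. GPR34, P2RY12, P2RY13 and SIGLECH were listed above the lesion only, with log2 ratios of -0.294, -0.071, -0.045 and 0.060. The medians of the sites thus cover different genes, and none was taken above the lesion over only the markers listed at both sites. Above the lesion 10 of 12 listed were lower and 1 was past the fold, with a median of -0.278. FCRLS, a microglial Fc receptor-like protein, was the lowest at 108.3 and 66.02 FPKM, and SIGLECH, a sialic acid-binding lectin, the highest at 139.9 and 145.9 FPKM. Below the lesion 7 of 8 were lower and 3 past the fold, with a median of -0.362, FCRLS again the lowest at 135.8 and 81.92 FPKM. SALL1, a transcription factor of microglial identity, was at 53.06 and 54.42 FPKM there, the only listed marker of this set that was higher.

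A separate list of 20 other genes of the disease-associated program was also examined. Above the lesion 14 of 19 listed genes were lower and 1 was past the fold, with a median of -0.164. CCL6, a chemokine, was the highest at 15.66 and 17.13 FPKM. The gene past the fold was LYZ2, lysozyme of macrophages, at 379.8 and 233.9 FPKM, whose reads may be shared with its near copy LYZ1. Below the lesion 17 of 17 were lower and 8 past the fold, with a median of -0.455. The lowest was IGF1, a growth factor made by activated microglia and other cells, at 531.8 and 198.2 FPKM, followed by LYZ2 at 1100.2 and 464.2 FPKM and LGALS3 (galectin 3) at 186.2 and 97.29 FPKM. TIMP2, an inhibitor of matrix metalloproteinases, was the highest at 182.8 and 182.2 FPKM.

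The signalling partners of TREM2 and TYROBP were lower mostly by small amounts. Above the lesion 9 of 11 listed partners were lower and 3 past the fold, with a median of -0.215. These were SYK, the kinase recruited by TYROBP, at 29.84 FPKM under the label synj1+/+ and 18.52 under the label synj1+/-, INPP5D (SHIP1), a lipid phosphatase that restrains the pathway, at 150.9 and 96.87 FPKM, and VAV1, a signalling protein of blood cells, at 28.33 and 19.64 FPKM. VAV3 was the highest at 12.77 and 14.37 FPKM. Below the lesion 9 of 9 were lower and 1 past the fold, with a median of -0.295: CARD9, an adaptor downstream of SYK that also serves CLEC7A, at 19.70 and 8.981 FPKM. VAV3 was again the highest, at 15.92 and 15.75 FPKM. PLCG2, a phospholipase C of this pathway, was under 3 FPKM in all 4 groups.

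Markers of other cells that could be in the segments were read in the same way. Of 11 markers of infiltrating and border macrophages, 5 were listed above and 6 below the lesion. Of these, 3 of 5 were lower and 2 past the fold above, with a median of -0.120, and 5 of 6 were lower and 3 past the fold below, with a median of -0.405. Summed levels were 46.15 and 37.03 FPKM above and 80.66 and 43.82 FPKM below in the groups labelled synj1+/+ and synj1+/-. MS4A7, a membrane protein of border and infiltrating macrophages, was the lowest at both sites, at 11.44 and 3.917 FPKM above and 27.96 and 11.67 FPKM below. LY6C2, a surface protein of inflammatory monocytes, was higher above, at 23.19 and 25.70 FPKM, and lower below, at 32.90 and 17.39 FPKM, and MSR1, a scavenger receptor, was at 13.29 and 9.002 FPKM below. CCR2, the monocyte chemokine receptor, was not listed at either site, and ARG1, under 3 FPKM in all 4 groups, had log2 ratios of 0.377 above and 0.181 below. Of the neutrophil markers 3 of 6 were listed above the lesion and 4 of 6 below, with medians of 0.053 and -0.448 and 1 of 3 and 4 of 4 lower. CSF3R, the receptor of a granulocyte growth factor, was at 367.1 and 280.8 FPKM above. S100A8 was at 1.105 and 1.284 FPKM above and 5.407 and 2.042 FPKM below, and S100A9 at 2.768 and 2.909 FPKM above and 13.35 and 9.862 FPKM below. CSF3R thus stood far over these 2 markers, and which cells gave its reads was not tested.

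Fibroblast markers differed far more than the members below the lesion. All 7 were lower there and 6 past the fold, with a median of -2.906 and summed levels of 474.3 FPKM under the label synj1+/+ and 70.81 under the label synj1+/-. Above the lesion 6 of 7 were lower, with a median of -0.492 and summed levels of 46.38 and 37.12 FPKM. MGP, a matrix protein, was the lowest below the lesion at 100.5 and 10.02 FPKM, and PDGFRB, a growth factor receptor that pericytes also carry, the highest at 24.76 and 17.30 FPKM. Above the lesion, among markers at 5 FPKM or more, DCN (decorin) was the lowest at 9.599 and 6.538 FPKM and PDGFRB the highest at 14.42 and 16.76 FPKM. The part of these cells in the members' values was not tested.

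Neuronal markers ran the other way. Their median was 0.105 above the lesion, with 3 of 10 lower, and 0.220 below, with 0 of 8 lower, and their summed levels were 10430.9 and 11807.6 FPKM above and 8402.3 and 10622.1 FPKM below in the groups labelled synj1+/+ and synj1+/-. TUBB3, a neuronal tubulin, was the lowest of them at both sites, at 407.5 and 377.3 FPKM above and 386.8 and 417.1 FPKM below, and the highest were RBFOX3 (NeuN) above, at 1484.6 and 1780.0 FPKM, and the vesicle protein SYT1 below, at 330.7 and 480.0 FPKM. Astrocyte markers had medians of -0.210 and -0.176 and oligodendrocyte markers of -0.081 and 0.022 above and below the lesion. Oligodendrocyte precursor markers had medians of -0.126 and -0.164, and endothelial markers of 0.140 and -0.176. The share of these values in the difference of the members was likewise not tested. No marker that was listed at a site was at 0 in both groups.

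**Figure D3:**
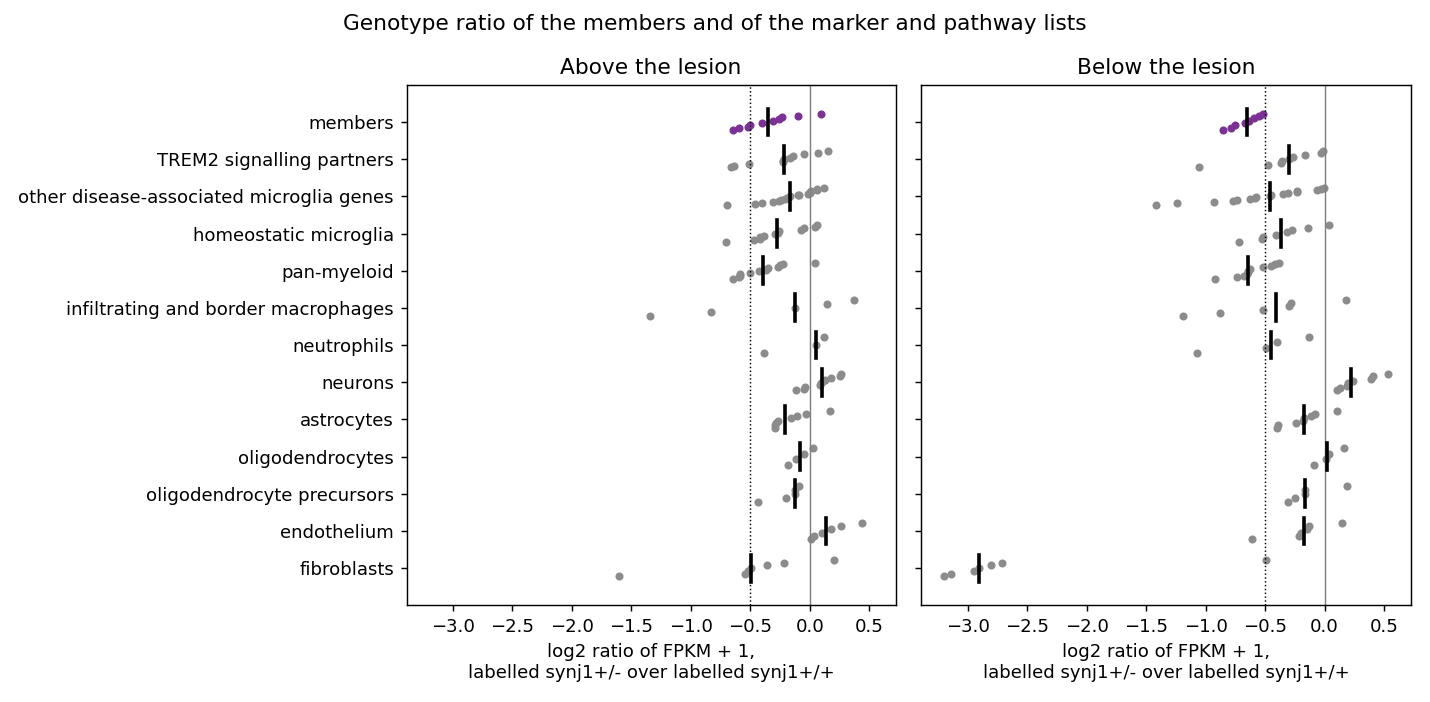
Log2 ratio of FPKM plus 1, labelled synj1+/- over labelled synj1+/+ (horizontal axis), of the members (first row) and of each listed gene of the marker and pathway lists, above and below the lesion; each point is a gene, the bar its list's median and the dotted line -0.5. Members and pan-myeloid markers have medians of -0.352 and -0.395 above and -0.652 and -0.642 below, while fibroblast markers reach -2.906 below.

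The members were then compared between the sites, for which 12025 genes were listed at both. In the group labelled synj1+/+, 8 of 8 members were higher below than above the lesion, from 1.27-fold for CD63 to 1.80-fold for SPP1, and 5 were higher by a log2 ratio of 0.5 or more, where 4.58% of all genes were. Their median log2 ratio was 0.557, against -0.001 for all genes. In the group labelled synj1+/-, 6 of 8 were higher below the lesion, ITGAX and CD9 were slightly lower, and 1 (GPNMB) passed that fold, where 2.30% of all genes did. Their median was 0.297 there, against 0.022 for all genes. For the counts of members higher below the lesion by any amount, no share of all genes was taken. The pan-myeloid markers again lay close to the members, with medians of 0.535 and 0.253, while homeostatic markers were nearly level between the sites, with medians of 0.058 and 0.028. Some other cell types were also higher below the lesion. In the groups labelled synj1+/+ and synj1+/-, the medians were 3.490 and 1.114 for fibroblast markers (7 and 6 of 7 past the fold) and 1.606 and 0.414 for 3 neutrophil markers. They were 0.543 and 0.119 for endothelial markers, and 0.507 and 0.664 for 5 infiltrating and border macrophage markers (3 past the fold in each group). Medians of neuronal, astrocyte, oligodendrocyte and oligodendrocyte precursor markers were 0.106 or lower. The part of these cells in the members' levels was not tested. Because each site was normalized on its own, these are values side by side.

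**Figure D4:**
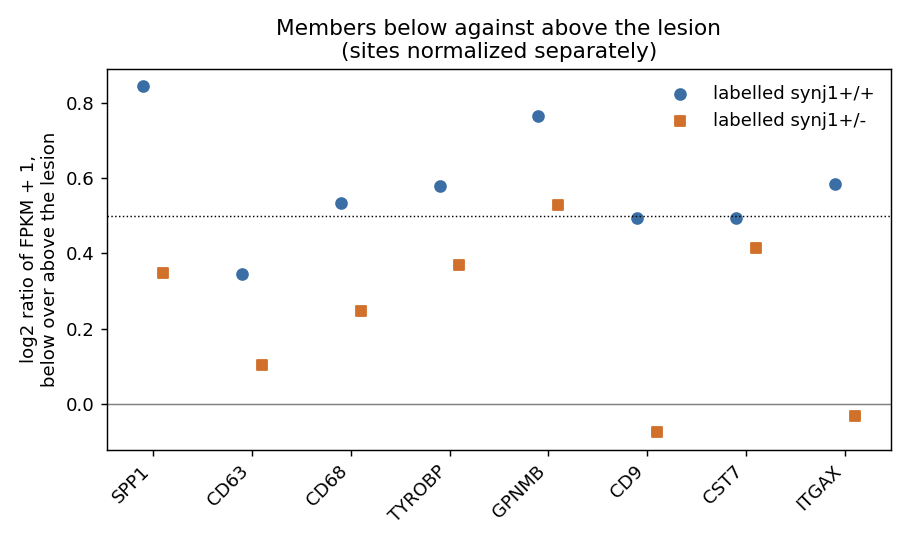
Log2 ratio of FPKM plus 1 below over above the lesion (vertical axis) of the 8 members listed at both sites, circles for the group labelled synj1+/+ and squares for the group labelled synj1+/-, with a dotted line at 0.5; the sites were normalized separately. Every circle lies above its square, from 0.345 for CD63 to 0.845 for SPP1, and the squares of ITGAX and CD9 lie at -0.032 and -0.076.

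The genotype ratio was lower below than above the lesion for 8 of 8 members, a count for which no share of all genes was taken. The difference of the log2 ratios ran from -0.615 for ITGAX and -0.569 for CD9, through -0.496 for SPP1, to -0.079 for CST7, with a median of -0.264 against 0.022 for all genes listed at both sites. ITGAX and CD9 were the 2 members at -0.5 or lower, where 4.56% of all genes were. The same difference had a median of -0.146 over the pan-myeloid list, -0.035 over the homeostatic list and -2.350 over the fibroblast list. Relative to the pan-myeloid median of each site, the members' median difference was -0.017. It was 0.015 with the 11 markers listed at both sites, and -0.118 when the median of each marker's own difference, -0.146, was subtracted, both chosen after seeing the data.

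The genes whose ratios at both sites lay nearest to those of TYROBP were ZMYND15, SERPINA3I, RHOJ, KCNE1L and RNASE4, in this order, among 10757 genes at 5 FPKM or more at both sites. ZMYND15 had log2 ratios of -0.683 above and -0.880 below, a Euclidean distance of 0.0493 from TYROBP. SERPINA3I belongs to a family of near copies, so its reads may be shared. The likeness rests on 4 group values only. TREM2 could not serve as the reference, having a value at 1 site.

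Promoters of the members were read to show which letters precede genes that were lower together. RefSeq windows of GRCm38.p6 were at hand for 9 of the 10 members. In the 250 bases before the start, the core of the PU-box, GAGGAA, bound by the myeloid factor PU.1 (SPI1), was found on either strand for 5 of 9 members (TREM2, SPP1, CLEC7A, CD63 and CD68), and in 25.9% of 27025 genes with a window of that length. The E-box CACGTG, bound by factors such as TFEB and MITF, was found for 0 of 9 members and in 6.86% of genes, and the related CATGTG for 1 of 9 (CD9) and in 13.8%. SPI1 itself was at 65.42 and 56.02 FPKM above the lesion and 86.61 and 64.53 FPKM below it in the groups labelled synj1+/+ and synj1+/-. The 120 bases before the start are shown for the receptor, the most abundant member and the lectin, 5′ to 3′ along the gene, with the PU-box core or its reverse complement TTCCTC in capitals; they come from chr17:48346281-48346400 (plus strand), chr5:104434991-104435110 (plus strand) and chr6:129472786-129472905 (minus strand).
Trem2: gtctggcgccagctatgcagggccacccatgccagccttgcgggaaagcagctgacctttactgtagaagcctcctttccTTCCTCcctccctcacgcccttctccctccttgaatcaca
Spp1: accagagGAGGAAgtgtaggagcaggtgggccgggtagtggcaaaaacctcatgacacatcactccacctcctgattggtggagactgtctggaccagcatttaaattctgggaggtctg
Clec7a: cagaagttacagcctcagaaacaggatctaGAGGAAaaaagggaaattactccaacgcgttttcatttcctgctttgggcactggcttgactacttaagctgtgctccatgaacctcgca
The first base of the match lies at -40 for Trem2, -113 for Spp1 and -90 for Clec7a. Members with the letters include both those past the fold above the lesion (TREM2 and CD68) and those that were not (CLEC7A, CD63 and SPP1). A match says that the letters are there, not that a factor binds.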

How the data were processed

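RNA of 12 spinal cord libraries (TRIzol, TruSeq RNA Sample Prep Kit v2, random primed) was sequenced. The submitters' processing notes name STAR 2.5.4b, Cuffdiff 1.3.0 and GRCm38.p6. Per the study's methods, reads were reduced within each site to the smallest library, aligned, and summarized with upper quartile normalization. The authors deposited 1 value per gene, genotype and site (25985 rows), read here as FPKM plus 1 because the lowest is 1. Columns of single libraries numbered 0. The table's fold changes, p-values and q-values, and a shorter list at a p-value limit, hold the authors' own comparisons and were not used.

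Log2 ratios of the deposited values were computed with Python 3.11.15, numpy 2.4.6 and pandas 2.3.3, and plotted with matplotlib 3.10.9; the scripts were tested on simulated data. For 3 symbols repeated within a site the first row was kept. Members and lists were chosen with earlier results of these data known. Named were all members, SYNJ1, the lowest and highest gene at 5 FPKM or more of each list given with its counts, and the 5 genes nearest to TREM2, replaced by TYROBP after values were seen. Also named after their values were seen were INPP5D, VAV1, PLCG2, CCR2, ARG1, SPI1 and LGALS3, LYZ2 and LY6C2 below the lesion, and S100A8 and S100A9 above it. Alternatives were other pseudocounts (0.1 and 5), scalings, a filter at 5 FPKM and other fold limits; further reference lists were chosen after seeing the data. Leaving out a replicate could not be done, having no single-library values.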

Additional observations from a re-analysis of the deposited data

Results flagged for a closer look

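ITGAX, the CD11c integrin subunit, had opposite directions at the 2 sites: its log2 ratio, labelled synj1+/- over labelled synj1+/+, was 0.098 above the lesion (11.45 and 12.32 FPKM) and -0.517 below it (17.66 and 12.03 FPKM), a difference of -0.615. The difference was not tested, since only 1 combined value per group is at hand, and ITGAX was the least abundant member.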

How the results depend on the processing

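No paired analysis was possible because the result comes from no test and the table holds combined group values only; leaving out a replicate was not possible for the same reason. The members' direction was kept under other pseudocounts and scalings over all genes. With a pseudocount of 5 the count past the lower fold was 2 above and 7 below, with no share of all genes taken. At a limit of -1 it was 0 at both sites, where 0.564% of all genes above and 1.30% below were. CD68 at -0.502 lies at the main limit of -0.5, and centering on all genes or equal sums leaves 3 above the lesion. The median above was -0.356 and -0.337 with pseudocounts of 0.1 and 5 and -0.344 with equal sums. The median below was -0.662 and -0.612 with those pseudocounts, -0.667 centered on all genes, -0.672 with equal upper quartiles and -0.681 with equal sums. The median difference between the sites was -0.282, -0.284 and -0.302 with the same 3 scalings. The planned reading that changed the result most was relative to the pan-myeloid list: 0 members past the fold at each site, medians of 0.042 (reversed in sign) above and -0.010 below, and a difference between the sites of -0.017. The cause was not tested. No share of all genes was taken on this scale or on those that follow. Of the readings chosen after seeing the data, the homeostatic list as reference gave 0 members past the fold at each site, medians of -0.074 above and -0.290 below and a difference between the sites of -0.180. That reference rests on 12 markers above and 8 below, so the -0.180 also carries the change of markers. No reading was taken with the same homeostatic markers at both sites. The pan-myeloid markers listed at both sites gave 0 at each site, medians of 0.011 (reversed) and -0.010 and a difference of 0.015 (reversed), and subtracting the median of these markers' own site differences gave -0.118. The filter at 5 FPKM was applied to the main setting only. It left the members' counts, medians and site difference as they were, since every listed member exceeds it. Of the genes at 5 FPKM or more, 2.51% above and 5.30% below were past the lower fold.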
